A study of Mus musculus with 4 samples.

Results

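The genes described are effectors of canonical Wnt signalling and a feedback gene of the pathway. They are the TCF/LEF transcription factors Lef1, Tcf7 and Tcf7l2, their partner beta-catenin (Ctnnb1) and the feedback gene Axin2. Members were all non-control probes that the scanner files annotate to these 5 symbols, out of 21145 gene symbols on the array. They comprised 13 of 41174 probes, printed as 22 spots per array. These genes were chosen by their log2 ratios, signal levels and agreement between probes on these same arrays, so their ratios are given as a description without a test.

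The cells were C2C12 myoblasts, a mouse cell line whose members fuse into myotubes in low serum. Treated cultures differentiated for 6 days with recombinant human follistatin 288 added at 200 ng/ml every 24 h, and control cultures were left untreated over that time. Both came from unmodified C2C12 cells in horse serum, whose concentration the labels give as 2% in one field and 10% in another. Follistatin is a secreted protein that binds activins and myostatin and blocks their access to receptors. Total RNA of 1 treated culture (Cy3) and 1 untreated culture (Cy5) was hybridised to each of 4 two-colour Agilent whole mouse genome arrays, called biological replicates in the labels. The labels call every array a dye swap, but their channel fields and labelling protocol give all 4 the same orientation, with treated RNA in Cy3. The direction of every ratio rests on those fields, and with no array of the opposite orientation a dye effect and a treatment effect on a probe cannot be told apart. Values are log2 ratios of the processed follistatin signal over the processed untreated signal, so a negative value means less signal in the channel labelled follistatin.

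In canonical Wnt signalling, secreted Wnt ligands bind Frizzled and LRP receptors and inactivate a destruction complex of Axin, APC and kinases that otherwise marks beta-catenin for degradation. Stabilised beta-catenin enters the nucleus and binds TCF/LEF proteins, which repress target genes without it and activate them with it. Axin2 is a direct target that feeds back on the destruction complex and is widely used as a readout of the pathway. In muscle cells beta-catenin also links cadherins to the cytoskeleton, and TCF/LEF factors take part in the switch from dividing to fusing myoblasts.

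The array set as a whole limits how firmly any ratio can be read. Between 61.1% and 69.4% of spots were well above background per channel, and the median log2 ratio of the tested features lay between -0.06 and 0.01. Replicates 2 and 3 resembled each other, with r = 0.81 (rho = 0.79) between their ratios across features, which are not independent of each other, against r between 0.079 and 0.27 (rho between 0.07 and 0.32) for the other 5 pairs. Whether replicates 2 and 3 share a culture or RNA was not tested, and means are therefore also given with this pair averaged to 1. Replicates 1 to 3 were on slide 1 and replicate 4 on slide 2. All 15 muscle markers, Des, Myog and Acta1 among them, were well above background in each channel of every array, with a summed log2 signal of 20.3 to 20.8 with follistatin and 20.9 to 21.1 untreated. Of 15 markers of other lineages, 9 did not pass the filter on dim probes (Ptprc, Adgre1, Pecam1, Cdh5, Epcam, Adipoq, Plin1, Snap25 and Alb). Another 5 were well above background throughout (Cd68, Cdh1, Krt14, Sox10 and Hba-a1). Their list summed to between 9.95 and 10.3 with follistatin and between 10.2 and 10.3 untreated, and the part of other cells in the ratios was not tested.

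Of the 13 probes, 12 passed the filter (well above background on 3 or more of the 4 arrays in 1 of the channels) and 10 were well above background in each channel of every array. The passing probes had 9 negative and 3 positive means. A single sign on all 4 arrays was seen in 3 of them: the brightest Lef1 probe and the brightest Tcf7l2 probe were lower with follistatin on every array, and 1 Ctnnb1 probe was higher on every array. The background for this count was 14.5% of tested probes lower and 13.7% higher on 4 of 4 arrays. The other 9 passing probes had both signs. By array, 6, 9, 8 and 9 of the 12 were negative on replicates 1 to 4.

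**Figure D1:**
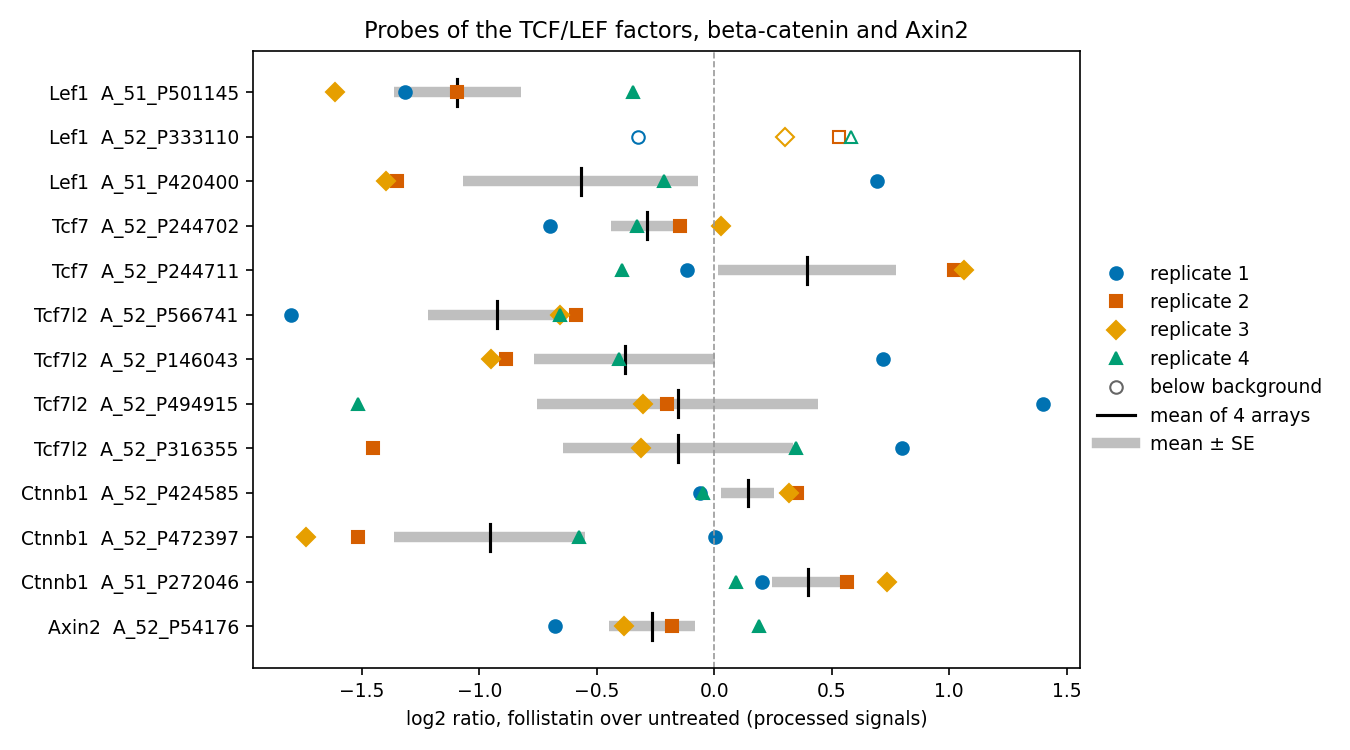
Log2 ratio of follistatin over untreated processed signal (x axis) for each of the 13 probes (y axis) on the 4 arrays, with symbols for replicates, a black line for the mean and a grey bar for the mean ± SE. The brightest Lef1 and Tcf7l2 probes lie left of 0 on every array, the 10-spot Ctnnb1 probe lies right of 0 on every array, and open symbols mark the Lef1 probe that was not well above background.

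Lef1, lymphoid enhancer-binding factor 1, was the member with the lowest mean. Its brightest probe, A_51_P501145, lies at chr3:130927036-130927095 (mm9, plus strand) in ENSMUST00000029611. Untreated cells gave processed signals of 2362, 1556, 1443 and 1166 on replicates 1 to 4, and follistatin-treated cells gave 948, 728, 472 and 917. On every array the treated value lay below the untreated one, and replicate 4 had the smallest gap. The log2 ratios were -1.32, -1.10, -1.61 and -0.35, with a mean of -1.09 ± 0.54 (SD, n = 4; SE 0.27), or 2.13-fold less signal with follistatin. In bulk RNA, less transcript per cell and fewer cells with the transcript cannot be told apart. The mean was -1.01 with replicates 2 and 3 averaged to 1 and -1.34 on the 3 arrays of slide 1. Of all tested probes, 3.38% had a lower mean ratio.

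The remaining Lef1 probes were dimmer. A_51_P420400 is annotated to NM_010703 at chr3:130907851-130926012, a span of 18162 bases for a 60-base probe, so it crosses an exon junction. It is shown because it is the only member probe that does so, and its first 30 bases are:
Lef1 A_51_P420400: gtacaggtcccagaatgacagctgcctaca
Its signals were 113, 249, 228 and 431 in untreated cells and 183, 97.6, 86.3 and 371 with follistatin. Its ratios of 0.69, -1.35, -1.40 and -0.21 put replicates 2 and 3 beside the brightest probe and replicate 1 on the opposite side of 0. The mean was -0.57 ± 1.00 (SD, n = 4), a spread larger than the mean. The difference between both Lef1 probes on replicate 1 was -2.01, against -0.21 to 0.25 on the others. The third probe, A_52_P333110 at chr3:130820056-130820115 in ENSMUST00000136147, was on no array well above background, with or without follistatin, so that it gives no ratio for that transcript.

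Tcf7l2, the TCF family member also called TCF4, came next in order of the mean. Probe A_52_P566741, its brightest, lies at chr19:56007586-56007645 (mm9, plus strand) in NM_009333. Signals were 6589, 3266, 3032 and 3371 in untreated cells and 1891, 2173, 1924 and 2136 with follistatin. On every array the treated value was below the untreated one, and the untreated signal of replicate 1 stood above the other untreated ones. That held for this probe only. On the 3 dimmer Tcf7l2 probes the untreated signal of replicate 1 was the lowest of the untreated ones, at 54.4, 22.7 and 20.6. The ratios were -1.80, -0.59, -0.66 and -0.66, with a mean of -0.93 ± 0.58 (SD, n = 4; SE 0.29), or 1.90-fold less signal with follistatin. Without replicate 1 the mean was -0.63, with replicates 2 and 3 averaged it was -1.03, and on slide 1 alone it was -1.02. With all 4 Tcf7l2 probes averaged it was -0.404. Lower means were seen in 5.24% of tested probes.

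The 3 dimmer Tcf7l2 probes did not have the same sign on all arrays. A_52_P146043, at chr19:55982975-55983034, lies 2417 bases from the brightest probe in NM_009333 but 24611 bases from it on the chromosome, so introns separate them. It is shown as the Tcf7l2 probe farthest upstream in this transcript:
Tcf7l2 A_52_P146043: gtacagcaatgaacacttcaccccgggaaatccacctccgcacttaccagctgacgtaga
Its ratios of 0.72, -0.89, -0.95 and -0.40 came from signals between 54.4 and 123, with a mean of -0.38 ± 0.77 (SD, n = 4). Like the second Lef1 probe, it was negative on all replicates except replicate 1. A_52_P494915, at chr19:55999411-55999470 in ENSMUST00000111653, gave 1.40, -0.20, -0.31 and -1.51, a mean of -0.16 ± 1.19. A_52_P316355, at chr19:56006460-56006519 and 1126 bases before the brightest probe, gave 0.80, -1.45, -0.31 and 0.35, a mean of -0.16 ± 0.98, and was well above background on 2 arrays with follistatin and 3 untreated. The spread of each of these probes exceeded its mean. On replicate 1 all 3 were higher with follistatin while the brightest probe was at its lowest.

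A_52_P316355 also shares a run of 18 identical bases with A_51_P156547, a probe of the related repressor-type factor Tcf7l1, the longest run between any probes of the members and of Tcf7l1:
Shared run of the Tcf7l2 and Tcf7l1 probes: attggtcaatatttgacc
The next longest run was 11 bases, between a Lef1 and a Tcf7 probe. Whether the run lets 1 transcript bind the probe of the other was not tested. The ratios of the Tcf7l1 probe were -0.66, -0.54, -0.44 and 0.34, opposite in sign to those of A_52_P316355 on replicate 1 and of the same sign on the other arrays.

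**Figure D2:**
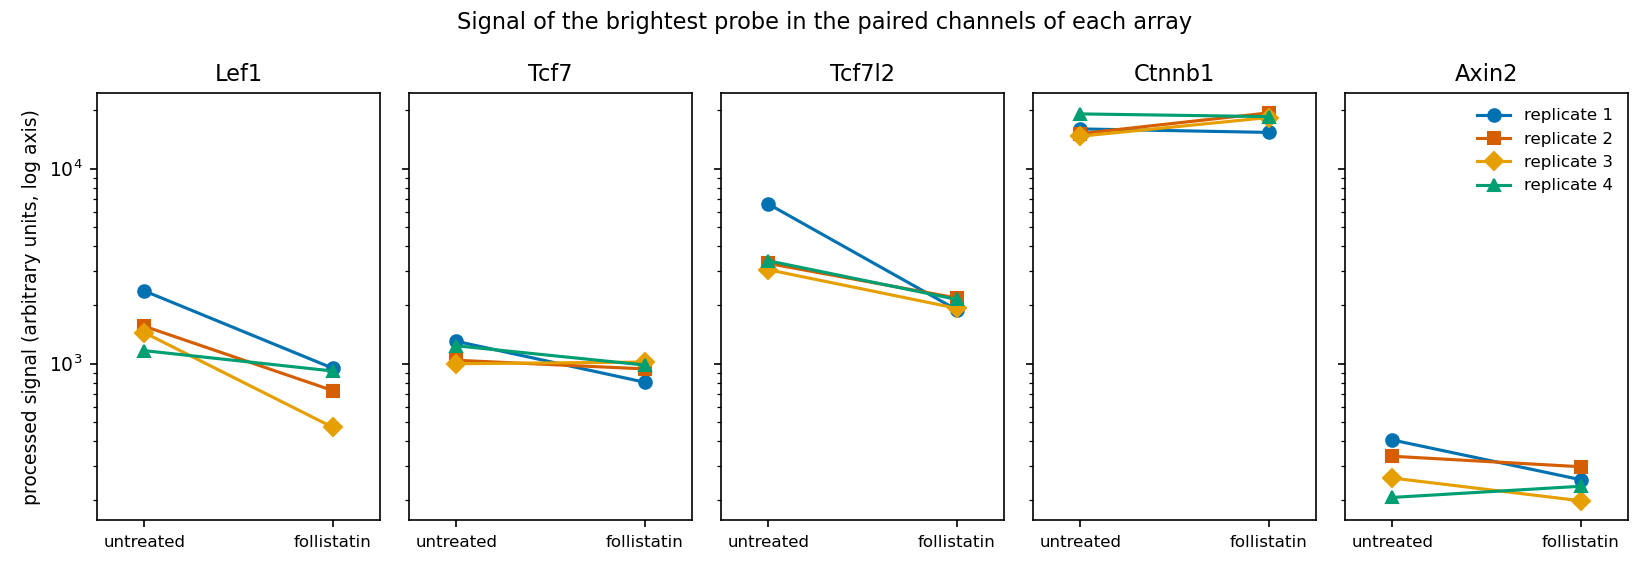
Processed signal in arbitrary units (log y axis) of the brightest probe of each member in the untreated and the follistatin channel, with a line joining both channels of 1 array. All 4 lines slope down for Lef1 and Tcf7l2, with the steepest Tcf7l2 line on replicate 1 (6589 to 1891), while the lines of Tcf7, Ctnnb1 and Axin2 cross or run both ways.

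Tcf7, the T cell factor 1 gene, differed less between the groups. Its brightest probe A_52_P244702, at chr11:52066114-52066173 (mm9, minus strand) in NM_009331, had signals of 1302, 1041, 999 and 1235 untreated and 803, 940, 1019 and 984 with follistatin. The groups overlapped, and replicate 3 had nearly the same signal in both channels. The ratios were -0.70, -0.15, 0.03 and -0.33, a mean of -0.29 ± 0.31 (SD, n = 4; SE 0.16), and of -0.148 without replicate 1. A second probe of the same transcript, A_52_P244711 at chr11:52066831-52066890, lies 717 bases away both in the transcript and on the chromosome, with no intron between. Its signals were 320, 237, 255 and 391 untreated and 296, 481, 534 and 297 with follistatin. Its ratios were -0.11, 1.02, 1.06 and -0.39, a mean of 0.39 ± 0.76. Replicates 2 and 3 were thus higher with follistatin on this probe and near 0 on the brightest one. The brightest probe minus this one was -0.58, -1.17, -1.03 and 0.07 on replicates 1 to 4, so neighbouring probes of 1 transcript gave different signs of the mean, and the sign for Tcf7 is not settled by these arrays. With both probes averaged the Tcf7 mean was 0.054.

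Ctnnb1, which encodes beta-catenin, was bright on all arrays. Its brightest probe had the smallest spread among the brightest probes of the 5 genes. Probe A_52_P424585, at chr9:120869274-120869333 (mm9, plus strand) in NM_007614, had signals of 16000, 15130, 14680 and 19100 untreated and 15350, 19330, 18300 and 18500 with follistatin. The groups overlapped. Its ratios were -0.06, 0.35, 0.32 and -0.05, a mean of 0.14 ± 0.225 (SD, n = 4; SE 0.11). Replicates 2 and 3 were slightly higher with follistatin and the other two were close to 0. With replicates 2 and 3 averaged the mean was 0.076.

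A second Ctnnb1 probe is printed 10 times on each array, which gives the error of a spot. A_51_P272046, at chr9:120868778-120868837 and 496 bases before the brightest probe in the same transcript, had ratios of 0.20, 0.56, 0.74 and 0.09, a mean of 0.40 ± 0.30 (SD, n = 4; SE 0.15). Over its 10 spots the SD of the ratio within an array was 0.023, 0.019, 0.039 and 0.019. All 10 spots were positive on every array. The spread between arrays holds differences of culture, labelling and hybridisation, which the repeated spots do not separate. Its signals were 9678, 8427, 8672 and 12490 untreated and 11130, 12450, 14440 and 13300 with follistatin, with 2 treated values below the highest untreated one. The brightest probe read lower than this one on every array, by 0.26 ± 0.06 (SE) on average, and both were highest on replicates 2 and 3.

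The third Ctnnb1 probe ran against the others. A_52_P472397, at chr9:120865275-120865334, is annotated to ENSMUST00000154687 and not to NM_007614. It is shown because it is annotated to another transcript of the gene than the probes above:
Ctnnb1 A_52_P472397: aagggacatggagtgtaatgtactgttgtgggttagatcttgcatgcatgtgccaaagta
Untreated signals were 2936, 4172, 4144 and 4884, and signals with follistatin were 2943, 1458, 1242 and 3281. Both channels were equal on replicate 1, while replicates 2 and 3 had far less signal with follistatin. The ratios were 0.0032, -1.52, -1.74 and -0.57, a mean of -0.96 ± 0.815 (SD, n = 4; SE 0.41). The difference between the brightest probe and this one was -0.06, 1.87, 2.06 and 0.53, a mean of 1.10 ± 1.03 (SD). The arrays on which the NM_007614 probes were highest were those on which this probe was lowest. Whether the probes differ because they read different transcripts was not tested. With all 3 probes averaged the Ctnnb1 mean turned to -0.139, so the sign of the mean for the gene depends on the probe. The brightest probe itself held both signs.

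**Figure D3:**
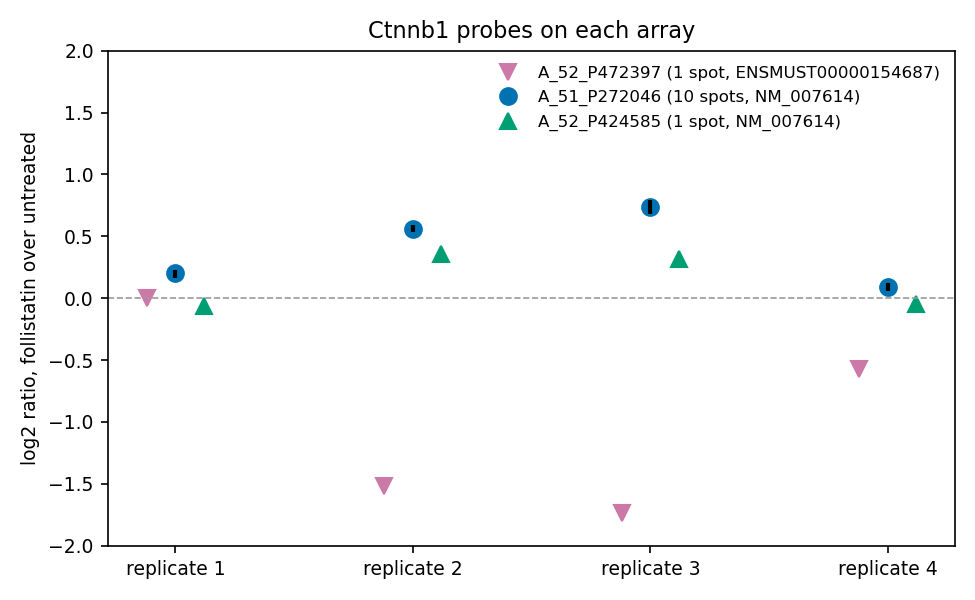
Log2 ratio of follistatin over untreated (y axis) of the 3 Ctnnb1 probes on each array (x axis), with a black bar for the range over the 10 spots of A_51_P272046. Both NM_007614 probes lie within 0.42 of each other on each array, and A_52_P472397 lies below them by the most on replicates 2 and 3.

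Axin2 was represented by a single probe, A_52_P54176, at chr11:108811980-108812039 (mm9, plus strand) in NM_015732. Its signals were 406, 335, 259 and 206 untreated and 254, 296, 198 and 235 with follistatin. The groups overlapped, and replicate 4 went the opposite way from the rest. The ratios were -0.68, -0.18, -0.39 and 0.19, a mean of -0.26 ± 0.37 (SD, n = 4; SE 0.18). On the 3 arrays of slide 1 the mean was -0.415, and with replicates 2 and 3 averaged it was -0.257. It was -0.125 without replicate 1 and -0.112 with both slides weighted equally.

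Ordered by the mean of the brightest probe, the 5 genes ran from Lef1 (-1.09) and Tcf7l2 (-0.93) through Tcf7 (-0.29) and Axin2 (-0.26) to Ctnnb1 (0.14). Lef1 and Tcf7l2 differed by less than the SD of either, and so did Tcf7 and Axin2. The ranges of Lef1 (highest -0.35) and Tcf7l2 (highest -0.59) both overlapped those of Tcf7 (lowest -0.70) and Axin2 (lowest -0.68). The range of Ctnnb1 overlapped those of Tcf7 and Axin2 but not those of Lef1 and Tcf7l2. Over the 4 arrays the root mean square difference of log2 ratios was smallest for Tcf7 and Axin2 (0.33) and largest for Lef1 and Ctnnb1 (1.37). The mean of the brightest probe passed the study's 1.6-fold minimum for Lef1 and Tcf7l2, both lower, where 8.78% of all features were lower and 5.09% higher by that much.

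Features with a gene symbol and the most similar ratios over the 4 arrays were sought among 13577 features well above background in each channel of every array. Lef1 was closest to 2900006A17Rik (root mean square difference 0.076), Helz (0.14) and L3mbtl2 (0.15). Tcf7l2 was closest to Olfr430 (0.16), Bicd1 (0.17) and Lmo1 (0.21), so it had no neighbour as near as the other members had. For Tcf7 these were Amz1 (0.030), B230340J04Rik (0.053) and Bahcc1 (0.056). For Ctnnb1 they were Emc7 (0.030), Aldh3a2 (0.040) and Mlkl (0.041), and for Axin2 Sort1 (0.053), Nos1ap (0.056) and Gmeb1 (0.056). With 4 values per feature and many features, close matches are common, and likeness here is a description of these arrays.

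TCF/LEF proteins recognise a short motif whose centre reads CTTTG, and several Wnt genes are known to be targets of the pathway themselves, so the start sites of the members were read for it. RefSeq start-site windows (GRCm38.p6, a later build than that of the probes) matched all 5 members with 11 windows of 250 bases before a start. The core CTTTG, or CAAAG on the opposite strand, occurred in 6 of the 11, where 48.6% of all 32851 windows held it. All 6 were windows of Lef1 or Tcf7l2, and the Lef1 windows that start at 131110047 and 131110073 overlap and share a core, so the 6 are not separate. The windows of Ctnnb1, Tcf7 and Axin2 held none. A longer form containing the core (CTTTG followed by AA, AT, TA or TT, on either strand) occurred in 2 of the 11, against 14.8% of all windows. Both counts were near the shares of all windows. The 2 windows with the longer form lie downstream of other windows of the same genes, which start at 131110047 for Lef1 and 55741560 for Tcf7l2. They are shown, 5′ to 3′ on the plus strand with each core in capitals, because they hold the longer form:
Lef1 chr3:131156044-131156293: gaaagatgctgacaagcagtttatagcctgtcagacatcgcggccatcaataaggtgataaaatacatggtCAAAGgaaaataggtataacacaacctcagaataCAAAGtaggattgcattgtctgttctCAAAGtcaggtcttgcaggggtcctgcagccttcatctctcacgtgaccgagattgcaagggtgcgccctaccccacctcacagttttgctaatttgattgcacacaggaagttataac
Tcf7l2 chr19:55895071-55895320: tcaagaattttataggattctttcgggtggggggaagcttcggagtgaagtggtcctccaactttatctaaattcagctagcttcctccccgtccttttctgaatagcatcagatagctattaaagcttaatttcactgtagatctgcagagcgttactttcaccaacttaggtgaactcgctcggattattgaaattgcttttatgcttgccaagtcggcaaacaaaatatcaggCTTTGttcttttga
The Lef1 window held 3 cores, 1 of them within TACAAAG, and the Tcf7l2 window held 1, within CTTTGTT. A match of letters shows no binding, and these arrays did not measure binding. Whether a core goes with a lower ratio was not tested.

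The other genes of the pathway were read from 7 lists of 159 genes, of which 129 had a tested feature. limma, with Benjamini-Hochberg adjustment over all 17863 features, called 2 features (0.0112%), 0 higher and 2 lower with follistatin. These were Ces3b and Olfr1299 (adjusted p = 0.00580 each), named after their values were seen. Neither was well above background in the follistatin channel, so no fold is given. At an unadjusted p under 0.05 in the limma fit there were 3682 of the 17863 features, 1639 higher and 2043 lower. The fit took replicates 2 and 3 as separate arrays, although their ratios correlated at r = 0.81. The unadjusted count therefore does not measure the extent of a treatment effect. No gene of the 7 lists was called. In all, 58 of the 129 had a positive and 71 a negative mean, 13 were positive and 14 negative on all 4 arrays, and the median was -0.03. Over all features tested, 8618 were positive and 9245 negative, 13.1% were positive and 15.9% negative on all arrays, and the median was -0.02 with quartiles of -0.29 and 0.25.

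**Figure D4:**
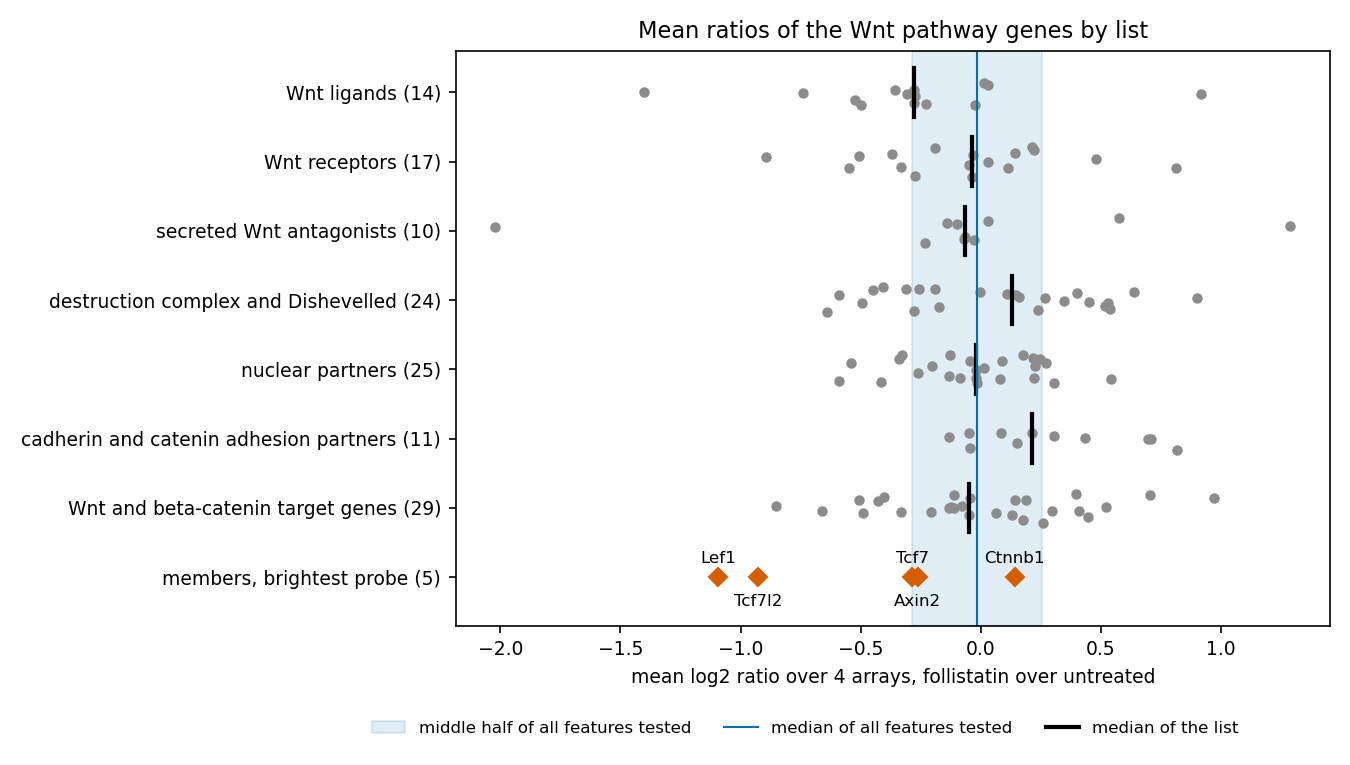
Mean log2 ratio over the 4 arrays (x axis) of each tested gene of the 7 Wnt pathway lists, with a black line for each list's median, and of the brightest probe of the 5 members (diamonds). The shaded band runs between the quartiles of all features tested (-0.29 and 0.25). Lef1 and Tcf7l2 lie left of the band at -1.09 and -0.93, and the 7 list medians lie inside it.

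Among nuclear partners of beta-catenin and the TCF/LEF factors, 25 of 25 genes were tested, with 11 positive and 14 negative means and a median of -0.02. Tcf7l1, the remaining TCF family member, had a mean of -0.33 ± 0.45 (SD, n = 4; limma adjusted p = 0.410) on its brighter probe and 0.16 on the other. Pygo2, which helps bridge beta-catenin to chromatin, was highest of the list at 0.54 ± 0.99, and at 0.081 without replicate 1. Bcl9, which binds both Pygo proteins and beta-catenin, was at -0.09 ± 0.55 on its brightest probe, and at -0.331 with its tested probes averaged. Smarca4, an ATPase of a chromatin remodeller, was lowest at -0.59 ± 1.04 and held both signs. Another Smarca4 probe had a mean of 0.13, and the average over its probes was -0.189. The inhibitor Ctnnbip1, which blocks beta-catenin from TCF, was at -0.05 ± 0.27, and the co-repressor Tle3 was at 0.01 ± 0.47. The sign of Tle3 turned in 7 of 11 other settings.

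The destruction complex and Dishevelled list, which holds the proteins that degrade beta-catenin or stop its degradation, had 24 of 24 genes tested, 13 positive and 11 negative, with a median of 0.13. Dishevelled 2 (Dvl2), which relays the receptor signal, was positive on all arrays at 0.59, 0.53, 0.91 and 0.03, a mean of 0.52 ± 0.36 (SD, n = 4; limma adjusted p = 0.204). Axin1, the scaffold related to Axin2, had 1.40, 0.64, 0.69 and -0.94, a mean of 0.45 ± 0.99 that turned to -0.013 with both slides weighted equally. The kinase Gsk3b had a mean of 0.54 ± 0.76 (adjusted p = 0.339, limma) and the ubiquitin ligase subunit Btrc 0.64 ± 0.65 (adjusted p = 0.240, limma). The dimmer Gsk3b probe had a mean of -0.23, and its probes averaged gave 0.154. After normexp and loess Gsk3b was at 0.302 and Btrc at 0.188. For Axin1, Gsk3b and Btrc, replicate 4 was the lowest array and the only negative one. Apc, whose 6 probes had means from -0.87 to 0.15, gave 0.15 ± 0.28 on the brightest and -0.256 averaged. Csnk1a1, the priming kinase for beta-catenin, was at -0.26 ± 0.20. Frat1, which keeps Gsk3 off Axin, was highest of the list at 0.90 ± 0.77, and at 0.426 after normexp and loess. Csnk1d was lowest at -0.64 ± 0.24, negative on all arrays. The 4 Csnk1d probes had means from -0.64 to 0.05, with an average of -0.204.

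Beta-catenin's partners at the membrane had a median of 0.22 (0.51, 0.23, 0.18 and 0.13 by array), and of 0.085 with all probes of a gene averaged. Of 16 cadherin and catenin genes 11 were tested, 8 positive and 3 negative. Jup, the beta-catenin paralogue also called plakoglobin, was highest at 1.61, 1.33, 1.07 and -0.74, a mean of 0.82 ± 1.06 (SD, n = 4; limma adjusted p = 0.285), with replicate 4 opposite to the others. Ctnna1, which ties beta-catenin to actin, was at 0.43 ± 0.32 on its brightest probe and -1.01 on another. M-cadherin (Cdh15), the muscle cadherin, was at 0.215 ± 0.55, a mean carried by 1.02 on replicate 1, and turned to -0.052 without that array. N-cadherin (Cdh2) was at -0.05 ± 0.27 on the brightest probe and -1.83 on another. Ctnna2 was lowest at -0.13 ± 0.52.

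Of 25 ligand and secretion genes, 14 were tested, with 3 positive and 11 negative means and a median of -0.28 (-0.28, -0.36, -0.39 and 0.07 by array). Wnt11, a ligand better known for beta-catenin-independent signalling, was lower on all arrays at -1.02, -0.81, -0.63 and -0.50, a mean of -0.74 ± 0.22 (SD, n = 4; limma adjusted p = 0.101), and -0.414 after normexp and loess. Wnt4 was at -0.28 ± 0.38, and neither of the 2 Wnt5a probes passed the filter. Wnt10b was highest at 0.91 ± 1.03 and Wnt8b lowest at -1.40 ± 1.14. The Wnt8b value was -0.024 and the Wnt10b value 0.338 after normexp and loess. With no filter on dim probes the list median was -0.117, and after normexp and loess it was -0.138.

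Receptors had 17 of 21 genes tested, 7 positive and 10 negative, with a median of -0.04. Fzd3 was highest, at 0.50, 1.03, 1.00 and 0.72, a mean of 0.81 ± 0.25 (SD, n = 4; limma adjusted p = 0.0948), though another of its 3 probes had a mean of -0.30. Its value was 0.434 after normexp and loess and 0.246 with all probes averaged. Fzd4 was lowest at -0.89 ± 0.82. The co-receptors Lrp5 and Lrp6 were at 0.48 ± 0.71 and 0.03 ± 0.40, the latter with the opposite sign in 4 of 11 other settings. Fzd7, a receptor of muscle precursors, was at -0.04 ± 0.21, and Ror2, a receptor for non-canonical ligands, at -0.28 ± 0.48. Their dimmer probes had means of -0.28 for Fzd7 and 0.255 for Ror2, with averages of -0.158 and -0.01.

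The antagonist list, most but not all of it secreted proteins, had 10 of 18 genes tested, 3 positive and 7 negative, with a median of -0.07. Dkk2, an LRP antagonist, was higher on all arrays at 0.72, 1.58, 1.55 and 1.30, a mean of 1.29 ± 0.40 (SD, n = 4; limma adjusted p = 0.0840). After normexp and loess its mean was 0.493. Kremen1, a co-receptor for Dkk proteins, was lowest at -2.02 ± 1.01 (adjusted p = 0.0863, limma), but its other probe was at 0.25 and the average at -0.886. Dkk3 was at 0.57 ± 0.53, and at 0.27 after normexp and loess. The Frizzled-like decoys Sfrp1 and Sfrp2 were at -0.06 ± 0.15 and -0.14 ± 0.52.

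Genes known as Wnt and beta-catenin targets had 29 of 35 tested, 13 positive and 16 negative, with a median of -0.05 that turned to 0.069 without replicate 1. The growth regulator Myc was at 0.14 ± 0.26. Cyclin D1 (Ccnd1), which drives entry into the cell cycle, was positive on all arrays at 0.28, 0.59, 0.72 and 0.21, a mean of 0.45 ± 0.24 (SD, n = 4; limma adjusted p = 0.211). Nkd1, a feedback inhibitor that acts on Dishevelled, was negative on all arrays at -0.30, -0.39, -0.49 and -0.44, a mean of -0.40 ± 0.08 (adjusted p = 0.204, limma), but 0.014 after normexp and loess. Nrcam, an adhesion molecule, was highest at 0.97 ± 0.31 (adjusted p = 0.0888, limma) but at 0.353 after normexp and loess. Mitf, a melanocyte and osteoclast factor, was lowest at -0.85 ± 0.69, and at -1.241 with its probes averaged. Fst, the mouse gene for follistatin itself and a reported Wnt target, had ratios of -0.88, -0.88, -1.69 and 0.80, a mean of -0.66 ± 1.05 (adjusted p = 0.359, limma). Id2, an inhibitor of myogenic factors, was at -0.21 ± 0.71 on its brightest probe. Another Id2 probe had a mean of -0.98, and the average over its probes was -0.559.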

How the data were processed

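Per the labels, RNA of follistatin-treated cells (Cy3) and untreated cells (Cy5) was hybridised to 4 arrays. The authors deposited intensity values from Agilent Feature Extraction. Its version was 10.7.3.1 in the submitters' processing notes and 10.10.1.1 for replicate 4 per the file headers. The software had subtracted background and normalized the dyes of each array in the processed signals. The authors' table of log2 values lay within 0.01 of the ratios used here for 99.9% of 41174 probes on each array, and the deposited log10 ratios were read only to check direction (r between 0.943 and 0.996). Scanner files of replicates 1 to 3 carry no gene names here, so names, positions (mm9) and probe sequences came from that of replicate 4, joined by identical feature and probe. A RefSeq table (GRCm38.p6) updated names: 27580 probes matched by accession, 5413 by symbol, 663 by synonym, 1229 kept the file's name and 6289 had none.

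Control spots (45018 spots, 43379 of them not controls) and outlier spots (85 to 142 per array) were left out and spots of a probe averaged. No spot was saturated (0 on all arrays). The 27017 probes well above background on 3 or more of 4 arrays in 1 of the channels were tested, the brightest probe standing for a gene, which gave 17863 features. Ratios were tested against 0 with limma 3.58.1 (lmFit, eBayes) in R 4.3.3, with Benjamini-Hochberg adjustment and a threshold of 0.05. Nothing in the labels says how the cultures were separated, so p-values measure the spread between these samples. The number of arrays limits precision. Members and lists were chosen with earlier results of these data known. Genes named are all members, a set of pathway genes, the extremes of each list and, for each member, the 3 features of nearest ratios. Alternatives were normexp (offset 50) with loess (span 0.3, 4 iterations), median centring, 2 other filters, averaged probes, a slide block, replicates 2 and 3 averaged, each replicate left out, and the methods' unpaired test on separate channels (17849 features).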

Additional observations from a re-analysis of the deposited data

Results flagged for a closer look

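Of 60 sets of 4 values examined, 6 had 1 array whose gap to the nearest other was too large a share of the whole range by Dixon's test at its 95% critical value, where chance flags about 1 in 20. The brightest Tcf7l2 probe had replicate 1 apart at -1.80 (gap 0.942 of the range). Ctnnbip1 had replicate 1 apart at -0.44 against 0.06 to 0.12 (0.898), and Nrcam had replicate 1 apart at 0.51 against 1.08 to 1.17 (0.87). Fzd4 had replicate 1 apart at 0.32 against -1.44 to -1.20 (0.865). Id2 had replicate 4 apart at 0.86 against -0.61 to -0.51 (0.93). Tle3 had replicate 4 apart at -0.68 against 0.18 to 0.34 (0.842). Since replicates 2 and 3 correlate, an array apart is nearly bound to be replicate 1 or replicate 4.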

How the results depend on the processing

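The number of features called by limma was 2 as reported, 0 after normexp and loess, 0 when both channels had to be well above background on all arrays, 7 with all probes of a gene averaged, 0 with the slide as a block, and between 0 and 7 with a replicate left out (0 without replicate 1, 0 without replicate 2, 2 without replicate 3, 7 without replicate 4). The methods' unpaired test called 1, and 1484 at an unadjusted p under 0.05 with 1.6-fold. Averaging all probes turned Tcf7 to 0.054 and Ctnnb1 to -0.139. The target list was at 0.098 with the slide block, and between -0.099 and 0.069 with a replicate left out. Over all settings Lef1 stayed between -1.342 and -0.831, Tcf7l2 between -1.038 and -0.404 and Axin2 between -0.415 and -0.112. Of 580 values recomputed, 564 moved by less than 1 SD. The mean turned sign in at least 1 setting for Bcl9, Ctnnbip1, Tle3, Apc, Axin1, Cdh2, Cdh15, Ctnna1, Lrp6, Fzd7, Sfrp1, Sfrp2, Nkd1, Id2 and Ctnna2. The test on ratios is itself paired, each array setting 1 treated against 1 untreated culture. Signal over background is a limit: the SD over arrays reached 1.19 on a faint Tcf7l2 probe, and 1 Lef1 probe gave no ratio.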
